A study of Rattus norvegicus with 6 samples.

Results

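The miR-34 and miR-449 family of small regulatory RNAs was followed in the left ventricle of rats on a high-fat diet and on chow. Members were all non-control array rows whose name began with rno-miR-34a, rno-miR-34b, rno-miR-34c or rno-miR-449, which gave 10 of the 758 miRNAs on the array. High-fat samples (3) were heart muscle of the left ventricle from male Wistar rats kept on a high-fat diet for 20 weeks. Chow samples (3) were the same tissue from male Wistar rats kept on normal chow for the same time. Each sample's total RNA was labelled with Cy3 and hybridised to 1 single-colour Agilent miRNA array. The labels gave no age and did not say whether samples came from separate animals, so each p-value reflects only how these samples scattered, and that scatter may be technical.

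A microRNA (miRNA) is cut from a hairpin precursor, and each arm of the hairpin (5p and 3p) can give a mature strand. Bases 2 to 8, the seed, lead the pairing with messenger RNAs, whose output the miRNA lowers. The transcription factor p53, a sensor of DNA damage and other stress, switches on the genes of miR-34a and of miR-34b/c in human and mouse cells, and the strands made from the 5′ arm act on messages of the cell cycle and of cell survival. In mouse hearts miR-34a is known to increase with age and after infarction. The genes of miR-34b/c and miR-449 are best known from tissues with multiciliated cells, such as airway epithelium, and from testis.

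The sequences are shown because the family is defined by them. All 10 members matched the RefSeq table of the GRCr8 build, in 5 hairpins. Capitals mark the seed. The 5p strands read:
rno-miR-34a-5p: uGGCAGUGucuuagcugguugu
rno-miR-34b-5p: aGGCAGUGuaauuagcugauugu
rno-miR-34c-5p: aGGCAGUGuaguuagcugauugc
rno-miR-449a-5p: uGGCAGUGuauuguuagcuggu
rno-miR-449c-5p: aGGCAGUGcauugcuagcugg

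All 5 of these 5p strands carried the seed GGCAGUG, and 0 of the other rat miRNAs in the table did. Counted from base 1 without gaps, miR-34b-5p and miR-34c-5p were the same at 21 of 23 bases and differed by A11G and U23C (miR-34b-5p's base first). On this count miR-34a-5p matched miR-34b-5p at 11 of 22 bases and miR-449a-5p at 15 of 22. An inserted base puts all later bases out of step in such a count, and miR-34b-5p has 23 bases against 22 in miR-34a-5p. The count therefore does not rank which members are closest to miR-34a-5p. miR-449a-5p and miR-449c-5p were the same at 18 of 21 bases. The 3p strands, the partners from the other arm, are shown because they do not share 1 seed:
rno-miR-34a-3p: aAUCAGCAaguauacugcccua
rno-miR-34b-3p: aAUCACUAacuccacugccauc
rno-miR-34c-3p: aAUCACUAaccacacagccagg
rno-miR-449a-3p: cAGCUAACaugcaacugcucuc
rno-miR-449c-3p: uAGAACUUcgucccaac

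Among them, miR-34b-3p and miR-34c-3p shared a seed, and each of the other 3 had its own. In GRCr8 the Mir34a hairpin lies alone on chromosome 5 (chr5:165815952-165816053, plus strand), inside the bounds of an uncharacterised long non-coding RNA gene, LOC103692514. Mir34c (chr8:60306091-60306167) and Mir34b (chr8:60306609-60306692) lie on the minus strand with 441 bases between them, inside the bounds of the protein-coding gene Hoatz. Mir449c (chr2:46402375-46402473) and Mir449a (chr2:46403910-46404000) lie on the plus strand with 1436 bases between them, inside the bounds of a second long non-coding RNA gene, LOC134485839.

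Before scaling, the high-fat arrays were brighter on average, with a 75th percentile of signal of 415, 532 and 561 against 359, 424 and 376 on chow arrays. They also had more miRNAs on average well above background, the scanner software's call of a spot brighter than its surroundings, at 414, 454 and 468 against 395, 418 and 388 on chow. In both measures high-fat replicate 1 lay below chow replicate 2. The software's stringency spike-in ratio, a hybridisation quality value, was 1.94, 0.974 and 1.55 on the high-fat arrays and 3.82, 4.19 and 3.44 on chow arrays. All 3 high-fat arrays and chow replicate 1 were on slide 1, and chow replicates 2 and 3 were on slide 2. The defining miRNAs of heart muscle (miR-1-3p, miR-133a-3p, miR-208a-3p and miR-499-5p) were well above background on all 6 arrays, 4 of 4.

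Of the 10 members, 5 reached the detection limit set for testing, well above background on 3 or more of 6 arrays, and were tested among 425 miRNAs: both strands of miR-34a, both strands of miR-34b, and miR-34c-5p. The miR-449 strands were not well above background on any array. None of the 5 tested members passed the test between the diets (limma, 0 of 5 at a Benjamini-Hochberg adjusted p under 0.05), where 0.471% of all tested miRNAs passed (2 of 425). At an unadjusted p under 0.05 there were 2 of 5, both strands of miR-34a and both on the higher side, where 4.24% of all tested miRNAs were on that side. Those strands were also the 2 members whose high-fat arrays all lay above every chow array, against 6.59% of all tested miRNAs, and 0 members lay wholly below, against 10.6%. One of the 2, miR-34a-3p, entered the test only through the high-fat arrays, so it had to differ there, and its place in these counts is no support for a change of the family.

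miR-34a-5p, the guide strand on which most work on the family was done, gave a strong signal on all 6 arrays. Its signal before scaling was 1546, 1815 and 2597 on the high-fat arrays, against 887, 940 and 1083 on chow arrays, for the probe used in the test. The second probe gave 1138, 1344 and 1938 on the high-fat arrays and 678, 659 and 808 on chow arrays. With either probe every high-fat array lay above every chow array, and high-fat replicate 3 was the brightest. The spots of 1 probe on 1 array varied by between 1.83% and 9.26% (coefficient of variation, 93 of 96 spots used).

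**Figure D1:**
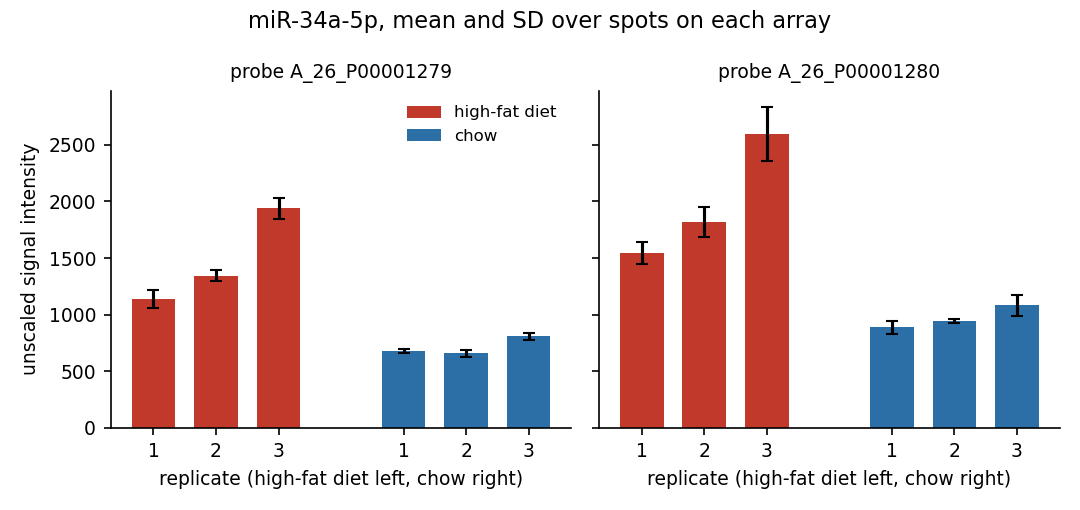
Unscaled signal of the 2 miR-34a-5p probes on each array, as bars of the mean over spots with the SD over spots. The lowest high-fat bar stands above the highest chow bar for both probes (1546 against 1083 on the right, 1138 against 808 on the left).

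Each array was then divided by its own 75th percentile and log2 was taken, which gives the log2 scaled signal used from here on. miR-34a-5p stood at 1.90, 1.77 and 2.21 on the high-fat arrays and at 1.30, 1.15 and 1.53 on chow arrays. The groups did not overlap, with means of 1.96 ± 0.23 on the high-fat diet and 1.33 ± 0.19 on chow (SD, n = 3 each). The log2 difference was 0.63 ± 0.15 SE (95% interval 0.28 to 0.99), a 1.55-fold higher level, and did not pass over all miRNAs (limma adjusted p = 0.192, unadjusted p = 0.00357). It ranked 9th among 425 in size upwards and 7th in order of p. The second probe differed by 0.64. In whole tissue, a change in the share of cells that hold a miRNA and a change per cell cannot be told apart.

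Slide 1 held 1 chow array and slide 2 no high-fat array, so values within a slide have no spread for chow and are given as values alone. Against chow replicate 1, within slide 1, the miR-34a-5p difference was 0.66. Without high-fat replicate 3, the brightest array, it was 0.51 (adjusted p = 0.379). It passed with another background correction, normexp, followed by the 75th percentile, at 0.64 (adjusted p = 0.0107). It also passed with no scaling between arrays, at 1.00 (adjusted p = 0.029), a setting that carries the brightness gap and moved the median of all miRNAs by 0.37. In the authors' deposited value table the difference was 0.63 (limma adjusted p = 0.245).

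**Figure D2:**
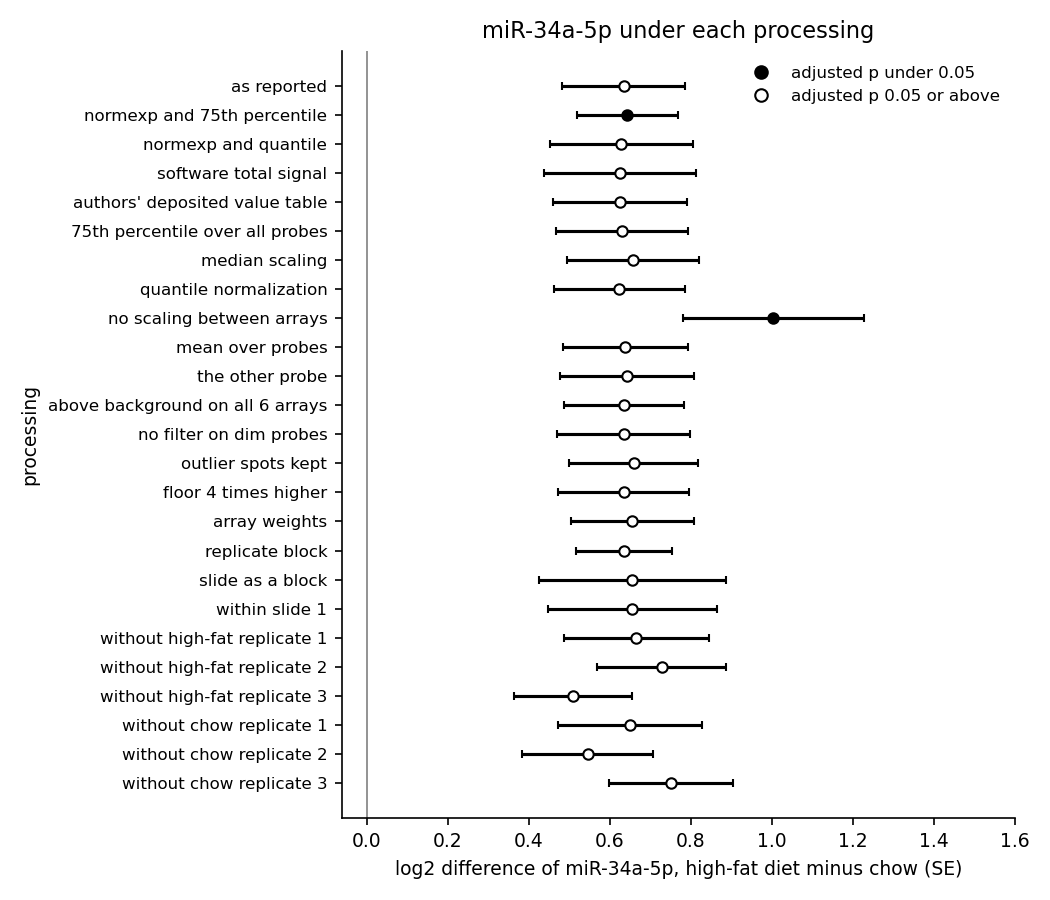
Log2 difference of miR-34a-5p, high-fat diet minus chow, with its standard error, for the reported processing and each alternative. The points lie between 0.51 and 1.00, and the filled ones, normexp with the 75th percentile and no scaling, have an adjusted p under 0.05.

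miR-34a-3p, the strand from the other arm of the same hairpin, was dim. Its brighter probe gave an unscaled signal of 12.6, 13.02 and 22.3 on the high-fat arrays and of 7.95, 9.64 and 8.66 on chow arrays. It was well above background on 3 of 3 high-fat arrays and 0 of 3 chow arrays, and so had only a bound on chow by that measure. The software's own call per miRNA was looser, and listed it as detected on all 6 arrays, with total signals of 6.62, 10.5 and 19.0 on the high-fat arrays and 4.31, 5.05 and 4.73 on chow arrays. On the log2 scaled signal it stood at -5.05, -5.35 and -4.65 on the high-fat arrays and at -5.50, -5.46 and -5.44 on chow arrays, without overlap.

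The measured means of miR-34a-3p were -5.02 ± 0.35 on the high-fat diet and -5.47 ± 0.03 on chow (SD, n = 3 each). Set against the lowest signal that counted as above background on each chow array, its mean high-fat level was at least 1.18-fold higher. This bound was not tested, and high-fat replicate 2 (-5.35) lay below the chow mean used for it (-5.26). The measured log2 difference was 0.45 ± 0.17 SE (limma adjusted p = 0.409). Under normexp with the 75th percentile, where the median of all miRNAs was -0.135, it was -0.13. It was 0.09 with normexp and quantile normalisation, 0.28 with the mean over probes, 0.84 with the software's total signal and 0.48 within slide 1. Of all 758 miRNAs, 4 were well above background on all high-fat and no chow arrays, and 0 the other way round. The part of the brighter high-fat arrays in this was not tested. The second, dimmer probe was above background on 1 array, high-fat replicate 3. Because miR-34a-3p was not well above background on chow arrays, the planned comparison of both miR-34a strands within each array was not made.

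**Figure D3:**
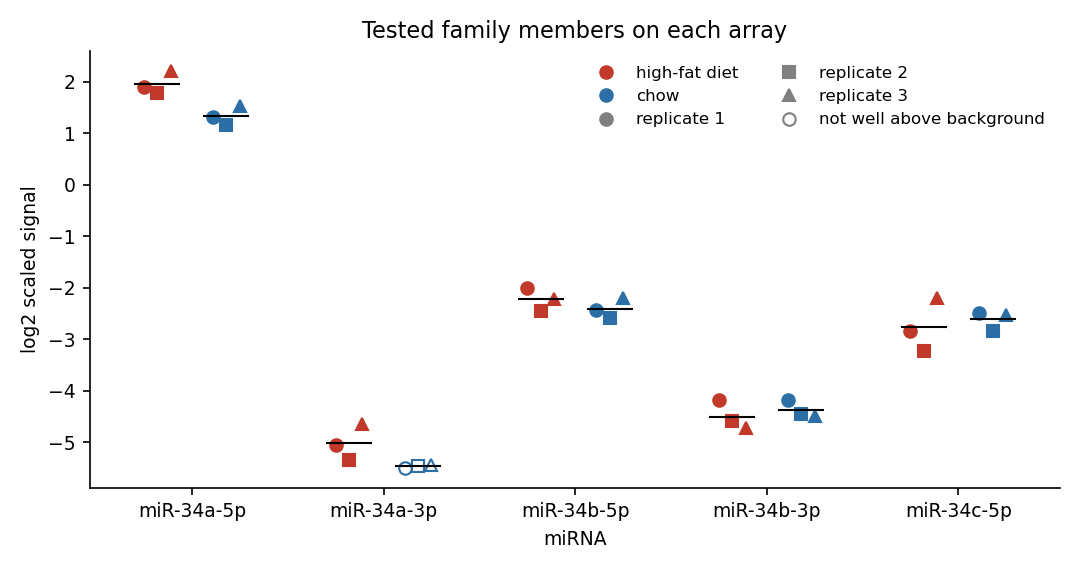
Log2 scaled signal of the 5 tested members on each array, with high-fat arrays left of chow arrays, replicates by shape, means as lines, and open symbols where the probe was not well above background. Only the 2 miR-34a strands have high-fat and chow arrays that do not overlap, and miR-34c-5p on high-fat replicate 3 (-2.19) stands above the other high-fat arrays.

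miR-34b-5p, which carries the same seed but comes from the cluster on chromosome 8, overlapped between the diets. It stood at -2.004, -2.46 and -2.22 on the high-fat arrays and at -2.43, -2.58 and -2.20 on chow arrays. The log2 difference was 0.18 ± 0.15 SE (95% interval -0.18 to 0.53, limma adjusted p = 0.682). It was 0.06 without high-fat replicate 1, 0.29 without chow replicate 3 and 0.55 with no scaling. Its second probe differed by 0.05. Before scaling, its high-fat arrays (103, 96.7 and 120) all lay above its chow arrays (66.9, 70.8 and 81.7) and the overlap appeared with scaling. Within slide 1 the difference was 0.20.

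miR-34b-3p, the partner strand, stood at -4.19, -4.59 and -4.73 on the high-fat arrays and at -4.19, -4.45 and -4.49 on chow arrays. The log2 difference was -0.13 ± 0.16 SE (95% interval -0.50 to 0.25, limma adjusted p = 0.792), and with no scaling it was 0.24. It was -0.28 without high-fat replicate 1 and -0.0048 without chow replicate 1, and -0.31 within slide 1. Its unscaled signals were 21.1 to 22.8 on the high-fat arrays and 16.8 to 19.7 on chow arrays, and it was well above background on 6 of 6 arrays. The diets overlapped after scaling.

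miR-34c-5p, which lies next to miR-34b in the genome and nearly matches it in sequence, had the widest spread among the tested members on the high-fat diet. It stood at -2.84, -3.23 and -2.19 on the high-fat arrays and at -2.49, -2.83 and -2.52 on chow arrays. High-fat replicate 3 was the highest of the 6 arrays and high-fat replicate 2 the lowest. The log2 difference was -0.14 ± 0.25 SE (95% interval -0.72 to 0.45, limma adjusted p = 0.87). It was -0.42 without high-fat replicate 3 (adjusted p = 0.537) and 0.10 without high-fat replicate 2 (adjusted p = 0.89). Within slide 1 it was -0.26, and with no scaling it was 0.23. Its direction therefore rested on single arrays and on the scaling.

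The excess of miR-34c-5p on high-fat replicate 3 was present in both of its probes. Their unscaled signals were 109 and 123 there, against 44.5 to 45.0 and 56.7 to 58.0 on the other high-fat arrays and 51.1 to 54.6 and 59.6 to 65.6 on chow arrays. After scaling, miR-34c-5p on that array stood 0.84 above the mean of the other high-fat arrays, the 4th largest such excess among 425 miRNAs. The same excess was 0.55 for miR-34a-3p (11th), 0.38 for miR-34a-5p (36th), 0.01 for miR-34b-5p and -0.34 for miR-34b-3p. Across all tested miRNAs that array did not stand apart: 20 of 425 lay over 0.5 from the mean of the other high-fat arrays, against 34 and 29 for high-fat replicates 1 and 2.

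**Figure D4:**
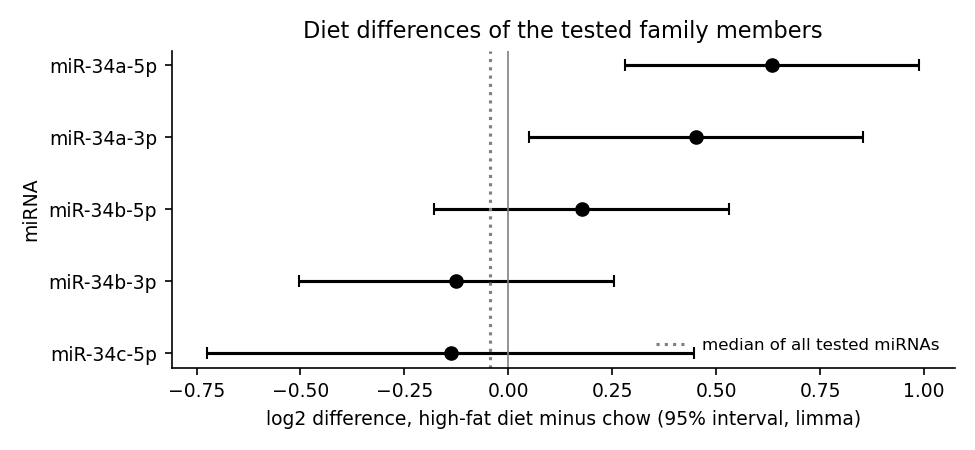
Log2 difference, high-fat diet minus chow, of the 5 tested members with the 95% interval from limma, and the median of all 425 tested miRNAs (-0.04) as a dotted line. The intervals of the 2 miR-34a strands lie above 0 before adjustment, and those of miR-34b-5p, miR-34b-3p and miR-34c-5p include 0. miR-34a-3p was not well above background on any chow array and was tested only through its high-fat arrays, so its interval is no support.

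Members were next set against each other within each array, where scaling between arrays cancels. These 3 pairs were chosen after their values were seen, so their p-values only describe and are no support. The adjustment covers these 3 pairs and not the others that could have been formed. Probes of different miRNAs differ in brightness per molecule, so only the change of a gap between arrays can be read. The gap of miR-34a-5p over miR-34b-5p was 3.90, 4.23 and 4.43 on the high-fat arrays. On each of the 3 chow arrays it was 3.73 for the probes used, an evenness that their second probes did not show. It was 0.46 wider on the high-fat diet, and wider in 3 of 3 high-fat arrays than in any chow array (2-sided exact permutation p = 0.1, the smallest that 3 against 3 arrays allow, and 0.3 adjusted over the 3 pairs).

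The gap of miR-34b-5p over its partner strand miR-34b-3p was 2.18, 2.13 and 2.51 on the high-fat arrays and 1.76, 1.87 and 2.29 on chow arrays (2-sided exact permutation p = 0.3, adjusted p = 0.4). The gap of miR-34b-5p over its neighbour miR-34c-5p was 0.84, 0.77 and -0.03 on the high-fat arrays and 0.06, 0.25 and 0.32 on chow arrays (2-sided exact permutation p = 0.4, adjusted p = 0.4). In both of these pairs the diets overlapped, and in the second, high-fat replicate 3 alone stood below every chow array.

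**Figure D5:**
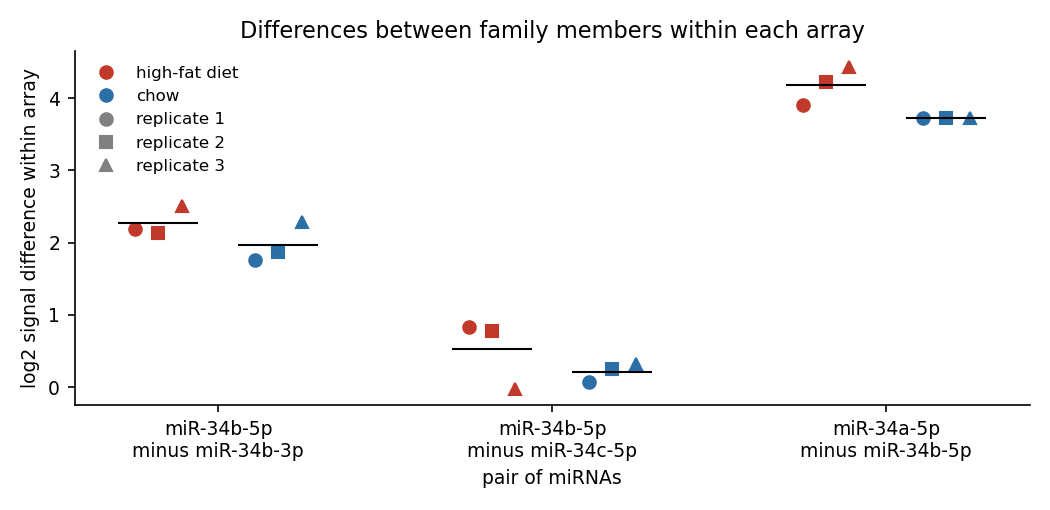
Gap in log2 signal between 2 members on the same array, for 3 pairs, with high-fat arrays left of chow arrays, replicates by shape and means as lines. The gap of miR-34a-5p over miR-34b-5p is 3.73 on all chow arrays and 3.90 to 4.43 on high-fat arrays, while the other 2 pairs overlap.

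The remaining 5 members were not tested. miR-34c-3p, the partner of miR-34c-5p, has 4 probes. Across them its unscaled signal ran from -0.32 to 9.37 on the high-fat arrays and from -0.25 to 5.42 on chow arrays. It was well above background in 2 of 12 probe and array combinations on the high-fat diet, both on replicate 3, and in 0 of 12 on chow. The 4 miR-449 strands (miR-449a-5p, miR-449a-3p, miR-449c-5p and miR-449c-3p) have 10 probes. They were well above background in 0 of 30 combinations on the high-fat diet and 0 of 30 on chow, with unscaled signals of -2.46 to 5.55 on high-fat and -2.32 to 3.82 on chow arrays. The highest miR-449c-3p signals, 5.27 and 4.54, were both on high-fat replicate 3. Its probes gave at most 0.43 on the other high-fat arrays and at most 1.27 on any chow array. Values below 0 arise because the software subtracts background. The number of arrays and the background, not a count, limit what could be seen.

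The 5 miRNAs outside the family whose pattern over the 6 arrays was most like that of miR-34a-5p were sought by the root mean square difference of log2 values, each centred on its own mean. They were miR-451-5p (0.20), miR-338-3p (0.21), miR-532-5p (0.21), miR-223-3p (0.22) and miR-28-3p (0.22), where the median over 424 miRNAs was 0.42. Within the family the same measure was 0.16 for miR-34a-3p, 0.28 for miR-34b-5p, 0.43 for miR-34c-5p and 0.48 for miR-34b-3p. Entry of miR-34a-3p through the high-fat arrays alone favours a low value, so its 0.16 is no support. How far the filter lowered it was not tested. The nearest outside, miR-451-5p of red blood cells, stood at 3.51, 3.60 and 4.04 on the high-fat arrays and at 3.33, 3.14 and 2.98 on chow arrays.

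The summed linear scaled signal of the 3 erythroid markers was higher in the same diet as miR-34a-5p, at 13.8 to 20.2 on the high-fat diet and 9.04 to 11.1 on chow. These markers (miR-451-5p and both strands of miR-144) were all above background on 6 arrays. Most of their sum was miR-451-5p, picked above for its likeness, so the sum is not a separate observation. Of the miR-144 strands, miR-144-3p did not overlap between the diets. miR-144-5p did, at -3.92 on high-fat replicate 2 and -3.90 on chow replicate 1. High-fat replicate 3 had the highest sum too. Among chow arrays the order differed: replicate 3 was the highest for miR-34a-5p (1.53) and the lowest for miR-451-5p (2.98). miR-486, a miRNA of red cells and of muscle outside this list, named after its values were seen, had a mean log2 scaled signal of 0.58 ± 0.22 on the high-fat diet and 0.58 ± 0.16 on chow (SD, n = 3 each). The part of red blood cells in the miR-34a-5p difference was not tested. The sums of the 4 heart muscle markers were 167 to 200.0 on the high-fat diet and 211 to 216 on chow. Every high-fat sum lay below every chow sum. Among these markers, miR-133a-3p did not overlap between the diets (log2 difference -0.37). By contrast miR-1-3p (-0.22) and miR-208a-3p (-0.04) overlapped. The part of the heart muscle markers in the results above was not tested. The 3 myeloid markers, miR-223-3p among them, summed to 4.995 to 6.40 on the high-fat diet and to 4.16 to 5.68 on chow. The sums of the myeloid, endothelial, smooth muscle and fibroblast markers overlapped between the diets. Of the 6 epithelial markers 1 was above background on all 6 arrays and 1, miR-429, on none, and their sums were 0.42 to 0.54 on the high-fat diet and 0.16 to 0.49 on chow.

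Other miRNAs linked to p53 were examined in 3 lists. The lists were chosen with earlier results of these data known, so the counts called in them only describe and are no support. Of 13 miRNAs reported to be raised by p53 or matured with its help in human or mouse cells, 12 were tested, 1 was called higher and 0 lower, and the median log2 difference was 0.04 against -0.04 for all 425. The 1 called was miR-141-3p, an epithelial miRNA, at 1.71 ± 0.25 SE (limma adjusted p = 0.0423), in a direction in which 0.235% of all tested miRNAs were called (1 of 425). It is also on the epithelial marker list, as are miR-200c-3p and miR-205. No miRNA was called without high-fat replicate 2, high-fat replicate 3 or chow replicate 2, so that call was lost in each case. Next in order of p were miR-200c-3p at 1.27 ± 0.34 SE (adjusted p = 0.224), whose gene neighbours that of miR-141, miR-107-3p at 0.05 ± 0.09 SE and miR-205. Of these, miR-200c-3p was well above background on 3 of 3 high-fat and 1 of 3 chow arrays, so the size of its difference is uncertain. miR-205 was so on 2 of 3 high-fat and 1 of 3 chow arrays and lay at the floor on 1 array of each diet, so no difference is given. On the high-fat arrays, all on slide 1, miR-141-3p stood at -1.54, -1.47 and -1.51. On chow it stood at -2.57 on replicate 1 (slide 1) and at -3.55 and -3.52 on slide 2. For miR-200c-3p the values were -3.93, -4.09 and -4.10 on high-fat, -4.43 on chow replicate 1, and -5.77 and -5.74 on slide 2. In both, the chow array on slide 1 lay nearest to the high-fat arrays. The part of the slide was not tested.

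Of the 6 miRNAs of the miR-17-92 cluster, which p53 is reported to repress in human cells, 6 were tested and 0 were called in either direction (median 0.04, range -0.06 to 0.17). Those with the smallest p were miR-18a-5p at 0.17 ± 0.11 SE, miR-19a-3p at 0.10 ± 0.09, miR-92a-3p at -0.06 ± 0.10 and miR-19b-3p at 0.04 ± 0.10. Of 8 miRNAs reported to act on p53 itself or on its regulators, 7 were tested and 0 were called (median -0.06, range -0.14 to 0.07). Among these, miR-125b-5p, which targets the p53 message in human cells, differed by -0.14 ± 0.11 SE, miR-30d-5p by -0.12 ± 0.10, miR-29c-3p by -0.08 ± 0.09 and miR-25-3p by 0.07 ± 0.09. Over all tested miRNAs 0.471% were called (2 of 425), so 0 called in lists this short says nothing particular about them.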

How the data were processed

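Single-colour Agilent miRNA arrays of 3 high-fat and 3 chow samples were analysed. The deposited spot files hold fluorescence intensity values, background-subtracted and detrended within each array, per the file headers, with no scaling between arrays. The software was Agilent Feature Extraction 11.0.1.1, per the submitters' processing notes. The authors' deposited value table holds log2 values. It shared its quantiles between arrays and followed the software's total signal, while the steps behind it are not given in the sources used here.

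Of 12128 spots per array (1806 probes, 758 miRNAs), spots with outlier flags were left out and the rest averaged per probe. A probe counted as above background when at least 50% of its spots were. Each array was divided by its 75th percentile over the 757 probes above background on all arrays. Values under the 1st percentile of detected signals (log2 of -5.82) were set to it. The brightest probe stood for each miRNA, and 425 miRNAs above background on at least 3 arrays were tested with limma 3.58.1 in R 4.3.3 (Benjamini-Hochberg, threshold 0.05, no covariate). The fit was tested on simulated data. Array number, 3 per diet, limits precision.

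All family members were named, with the 4 smallest p of each p53 list and the 5 miRNAs most like miR-34a-5p. Marker miRNAs are given as lists. Members and lists were chosen with earlier results of these data known. Seeds, identities and hairpin positions were computed from RefSeq sequences (GRCr8); the array files give no miRNA coordinates.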

Additional observations from a re-analysis of the deposited data

Results flagged for a closer look

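miR-34c-3p was not tested, yet 2 of its 4 probes were well above background on high-fat replicate 3, with unscaled signals of 9.37 and 9.27, and 0 were on chow arrays. The software's total signal listed it as detected on high-fat replicates 2 and 3, at 1.66 and 5.08, and on 0 chow arrays. The software also listed miR-449a-5p as detected on high-fat replicate 3 alone, with a total signal of 3.03, although 0 of its probes were well above background there.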

How the results depend on the processing

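miR-34a-5p stayed on the higher side in 24 of 24 alternatives, between 0.51 and 1.00 on the log2 scale. It was called in 2 of them, with normexp and the 75th percentile at 0.64 and with no scaling at 1.00. Not all of the 24 could move its value. The changed filters on dim probes, the higher floor and the replicate block left it at 0.63. Slide as a block and within slide 1 gave the same value, 0.66. Both rest on chow replicate 1 alone for the diet difference, so they are read as values and not as calls. Leaving out 1 array each gave 0.51 to 0.75. Family members called numbered 1 in those same 2 settings and 0 without any 1 array. miR-34a-3p had a value in 18 alternatives. With normexp and the 75th percentile it was -0.13, where the median of all miRNAs was -0.135. Its highest value was 0.84, with the software's total signal. It had none with the filter on all 6 arrays, with the higher floor, with its other probe, or without any 1 high-fat array, since too few arrays were then above background. Leaving out 1 chow array gave 0.45 to 0.48. With no scaling miR-34b-3p turned to 0.24 and miR-34c-5p to 0.23, while the median of all miRNAs moved by 0.37. miR-34c-5p was -0.42 to 0.10 with 1 array left out, 0.10 being without high-fat replicate 2. With a floor 4 times higher miR-34b-3p lay at the floor.

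Of all miRNAs, 2 were called as reported, 8 with normexp and the 75th percentile and 5 with no scaling. With the mean over probes or outlier spots kept, 1 was called. With quantile normalisation, the authors' table, no filter on dim probes or a floor 4 times higher, 0 were called. The range was 0 to 3 with 1 array left out. The median of the p53-raised list was 0.41, of the p53-lowered list 0.41 and of the p53-acting list 0.30 with no scaling. The p53-lowered median was 0.083 with quantile normalisation and 0.10 with slide as a block. With 1 array left out the medians were -0.03 to 0.07, 0.028 to 0.079 and -0.09 to -0.04. Leaving out the scaling adds the same amount to the diet difference of every miRNA above the floor, so with no scaling all 3 medians rose together. The cause of the other changes was not tested.

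With the replicate block, miR-34a-5p differed by 0.63 (limma adjusted p = 0.104) and 3 miRNAs were called. Same-numbered samples correlated at 0.22, -0.01 and 0.06 in their deviations, and 1 of 3 high-fat samples correlated best with its own number, so the numbers were not taken as pairs. The 3 within-array gaps, tried with alternatives chosen after seeing the data, kept their direction. The planned mean spot signal for normexp was taken as the median signal.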
